A study of Mus musculus with 10 samples.

Results

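The genes described are those of the neurotrophins and their receptors: the ligand genes Bdnf, Ntf3 and Ntf5, the Trk receptor genes Ntrk2 and Ntrk3, the p75 receptor gene Ngfr and the sortilin gene Sort1. They were chosen by symbol, and all 7 had a row among the 55401 genes of the count table. RNA was sequenced from 10 libraries of mouse cells labelled as Schwann cells, which are the glia of peripheral nerves. The tumour group held 5 libraries of cells from pancreatic ductal adenocarcinomas of KPC mice that had received tamoxifen (20 mg/kg by intraperitoneal injection on 5 days, from 6 weeks of age). The pancreas group held 5 libraries of cells from the pancreas of KPC mice given the solution without tamoxifen. In both groups the strain was C57BL/6, the age at collection 4 months, and flow sorting had used an antibody to p75, the product of Ngfr. KPC mice carry an inducible pancreatic cancer model that tamoxifen switches on. The alleles and the driver of the recombinase are not given in the labels used here, nor is the number of animals behind a library, so p-values cover the spread between libraries only, and that spread may be technical. Tumour and pancreas were digested with different enzymes, so digestion and tissue cannot be told apart. The sample descriptions carry the codes COCUL for tumour and CTL for pancreas, which no label explains, so whether tumour cells were cultured with others before sequencing is not known.

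Neurotrophins are secreted growth factors that are made as longer precursors and cut by proprotein convertases such as furin. The mature factors signal through Trk receptor tyrosine kinases, brain-derived neurotrophic factor and neurotrophin-4 through TrkB, and neurotrophin-3 mainly through TrkC. All of them also bind p75, which has no kinase, and the precursors bind p75 together with sortilin. In injured peripheral nerve, Schwann cells are known to express p75 and to make brain-derived neurotrophic factor.

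Bdnf has several start sites, and 7 of them were in the table of RefSeq promoters (build GRCm38.p6), as were promoters of Ntf3, Ngfr and Ntrk2, 4 of the 7 genes in all. A pair of Bdnf windows is shown, each the 250 bases before a start site. Bdnf was chosen for its decrease, the largest among those of the 7 genes with enough counts to be tested. It was also chosen because its transcription is known to answer to the factor CREB. Both strands were searched for TCACGTCA, a variant of the CREB binding element, and capitals mark it. The windows are on the plus strand, at chr2:109692186-109692435 and chr2:109674450-109674699.
Bdnf window with the element: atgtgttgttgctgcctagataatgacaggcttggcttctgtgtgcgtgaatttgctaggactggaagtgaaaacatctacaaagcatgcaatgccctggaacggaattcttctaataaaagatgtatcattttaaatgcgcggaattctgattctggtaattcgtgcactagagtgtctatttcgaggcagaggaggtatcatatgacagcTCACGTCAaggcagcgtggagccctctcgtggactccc
Bdnf window before the first start site: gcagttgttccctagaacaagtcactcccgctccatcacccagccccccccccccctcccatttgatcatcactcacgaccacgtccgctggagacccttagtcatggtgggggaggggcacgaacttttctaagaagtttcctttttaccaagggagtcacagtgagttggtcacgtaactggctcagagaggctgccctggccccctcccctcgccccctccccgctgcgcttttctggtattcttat
Of the 7 Bdnf windows 1 held TCACGTCA, against 0.35% of all 32851 promoter windows of that length. This variant is known from the Bdnf gene itself. The full element TGACGTCA was in 0 of the 7 and in 1.55% of all windows, and CACGTG, another element searched, was in 0 of the 7 and in 6.02% of all windows. The shorter CGTCA, which TCACGTCA contains, was in that same window alone among the 7, and in 17.8% of all windows. The counts are per gene, so they do not say which Bdnf start site the transcripts used.

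Total estimated counts were 58242278 to 84194616 in tumour libraries and 60622336 to 89816499 in pancreas libraries. Levels are in CPM (counts scaled by the TMM-adjusted library size). A log2 fold change is the tumour level over the pancreas level, with its SE, from the edgeR quasi-likelihood test, and a gene was called at a Benjamini-Hochberg adjusted p below 0.05 over 17548 tested genes. Of these 65.8% were called, 32.4% higher and 33.4% lower in tumour, and the CPM of the groups did not overlap for 54.6%. Of the 7 neurotrophin and receptor genes 4 had enough counts to be tested (Bdnf, Ntf5, Ntrk3 and Sort1). Sort1 was called higher, Bdnf and Ntf5 lower, and Ntrk3 was not called. With so many genes called in this comparison, being called does not set these genes apart. Called changes of at least 4-fold were seen in 7.94% of tested genes, Bdnf and Sort1 among them. Fold sizes beyond those of Bdnf and Sort1 were seen in 3.27% and 3.14% of tested genes. Pancreas replicates 3 and 4 stood apart from the other pancreas libraries in several of the genes below, so results on the neurotrophin genes and their lists that both replicates move by over 1.5 times are given with and without them.

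The labelled cell type was set against its markers. Of 10 Schwann lineage markers 7 averaged under 1 CPM in both groups. Sox10, the lineage's transcription factor, had 0 counts in every tumour library and 0 to 9 per pancreas library, and Foxd3, Sox2 and Gfra3 had 0 in all 10. The lineage list summed to 6.33 to 8.22 CPM in tumour and 2.28 to 4.17 CPM in pancreas (here relative to total counts), 55.4% of it from the neuregulin receptor gene Erbb3. Of its 3 tested members 2 were higher in tumour, Erbb3 (log2 fold change 0.82, edgeR adjusted p = 0.0157) and Fabp7 (4.60, edgeR adjusted p = 2.7e-05), and 0 were lower. Myelinating Schwann markers summed to 147 to 159 CPM in tumour and 129 to 167 CPM in pancreas, 81.7% of it from Pmp22, while Mag was at 0 in all 10 libraries. Of its 7 tested members 2 were higher in tumour, Fa2h (log2 fold change 4.58) and Mal (1.86). The 2 lower were Pmp22 (-0.26) and Ncmap (-2.26). Without pancreas replicates 3 and 4 the Ncmap call ended (edgeR adjusted p = 0.134). In that fit Mbp was called higher (1.65, edgeR adjusted p = 5.72e-05), against 0.70 with all libraries (edgeR adjusted p = 0.147). The lineage marker Tfap2a, not tested with all libraries, was then higher (6.70, edgeR adjusted p = 0.00185). It had 7 to 21 counts per tumour library and 0 in pancreas. S100b, also tested only then, did not pass (-1.81, edgeR adjusted p = 0.0758). Some members of both Schwann lists were thus higher in tumour, as Sort1 was, while 2 myelinating members were lower with all libraries, as Bdnf was. The part of these lists in either difference was not tested. The cells are therefore named below by tissue.

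Bdnf (ENSMUSG00000048482.14, chromosome 2, 109674700 to 109727007, plus strand, mm10) encodes brain-derived neurotrophic factor. Its level was 2.28, 2.94, 3.19, 2.23 and 3.33 CPM in tumour replicates 1 to 5, against 17.4, 17.2, 28.6, 29.1 and 13.8 CPM in pancreas replicates 1 to 5. All tumour libraries lay below all pancreas libraries, and within pancreas replicates 3 and 4 were the highest. The means were 2.80 ± 0.511 CPM in tumour and 21.2 ± 7.12 CPM in pancreas (SD, n = 5 each). Bdnf was 7.60-fold lower in tumour (log2 fold change -2.93 ± 0.23, edgeR adjusted p = 1.6e-07). Without pancreas replicates 3 and 4 it was 5.80-fold lower (log2 fold change -2.54 ± 0.15, edgeR adjusted p = 1.69e-08). In bulk RNA, fewer cells that express a gene and less of its RNA per cell cannot be told apart. An antisense gene, Gm45346, shares 896 exon bases with Bdnf and had 0 counts in every library. The library kit does not mark strand, so reads in the shared bases cannot be told apart by strand.

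Sort1 (ENSMUSG00000068747.14, chromosome 3, 108284082 to 108361511, plus strand) encodes sortilin, a sorting receptor that binds neurotrophin precursors with p75 and steers Bdnf precursor into the regulated secretory pathway. It moved the other way. Its level was 36.8, 36.4, 36.2, 41.4 and 38.2 CPM in tumour replicates 1 to 5, against 4.93, 2.62, 8.15, 6.69 and 1.62 CPM in pancreas replicates 1 to 5. The tumour libraries lay close together and above every pancreas library, while pancreas libraries differed up to 5.03-fold among themselves, with replicates 3 and 4 the highest again. Means were 37.8 ± 2.17 CPM in tumour and 4.80 ± 2.73 CPM in pancreas (SD, n = 5 each). Sort1 was 7.86-fold higher in tumour (log2 fold change 2.97 ± 0.37, edgeR adjusted p = 3.7e-05), and 12.5-fold higher without pancreas replicates 3 and 4 (3.65 ± 0.30, edgeR adjusted p = 5.67e-06). Both genes were thus above the other pancreas libraries in replicates 3 and 4, Bdnf at 1.79 and Sort1 at 2.43 times the mean of replicates 1, 2 and 5. The overlapping antisense gene Gm12523 had at most 2 counts in a tumour library and 0 in every pancreas library. Here too the strand of reads in the shared bases is not known.

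Ntf5 (ENSMUSG00000074121.3, chromosome 7, 45413695 to 45417179, plus strand) encodes neurotrophin-4, the other ligand of TrkB. Its level was 1.80, 1.98, 2.10, 2.14 and 1.88 CPM in tumour replicates 1 to 5, against 2.29, 2.48, 2.44, 2.42 and 3.29 CPM in pancreas replicates 1 to 5. The groups did not overlap, and pancreas replicate 5 stood above the rest. Ntf5 was lower in tumour and passed narrowly (log2 fold change -0.38 ± 0.16, edgeR adjusted p = 0.0446). The call ended without pancreas replicate 5 (edgeR adjusted p = 0.132), and in 12 of 19 alternatives in all. Ntf3 (ENSMUSG00000049107.13, chromosome 6, 126101412 to 126166910, minus strand), the gene of neurotrophin-3, had 0 counts in all 5 tumour libraries, against 8 counts in each of pancreas replicates 3 and 4 and 0 in the other 3. Ntf3 had too few counts to be tested with the low-count filter. In the fit without that filter Ntf3 did not pass (log2 fold change -4.71 ± 1.91, edgeR adjusted p = 0.0676).

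**Figure D1:**
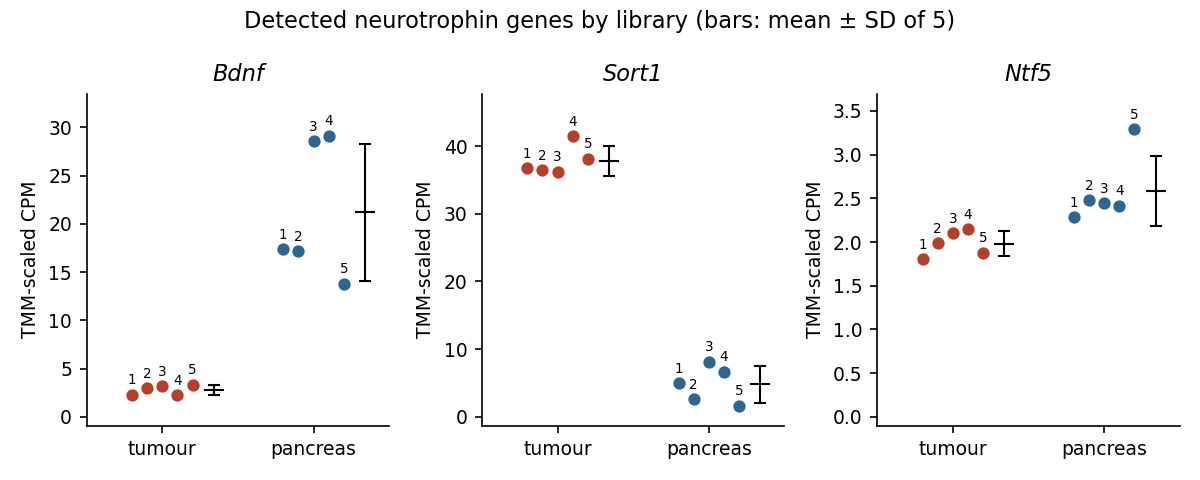
TMM-scaled CPM (vertical axes, from 0) of Bdnf, Sort1 and Ntf5 in the tumour (red, left) and pancreas (blue, right) libraries, with replicate numbers above the points and mean ± SD of 5 libraries as bars. Tumour and pancreas points do not overlap in any of these genes, and pancreas replicates 3 and 4 are the highest pancreas libraries for Bdnf and Sort1.

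The receptor genes lay near the floor. Ngfr (ENSMUSG00000000120.6, chromosome 11, 95568818 to 95587735, minus strand) encodes p75, the antigen used in the sort. It had 0, 0, 8, 0 and 14 estimated counts in tumour replicates 1 to 5, against 4, 11, 4, 8 and 22 counts in pancreas replicates 1 to 5. The groups overlapped, and 2 of 5 tumour libraries and 5 of 5 pancreas libraries were above 0. Ngfr was removed by the low-count filter, and in the fit without it the log2 fold change was -1.03 ± 1.17 (edgeR adjusted p = 0.503). In these files 1 fragment appears to count more than once, so no counting limit is given for the libraries at 0.

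Ntrk2 (ENSMUSG00000055254.15, chromosome 13, 58806569 to 59133970, plus strand), the gene of TrkB, had 8 counts in tumour replicate 5 and 4 counts in pancreas replicate 2, and 0 in the other 8 libraries. Ntrk3 (ENSMUSG00000059146.12, chromosome 7, 78175959 to 78738012, minus strand), the gene of TrkC, had 4, 0, 24, 14 and 4 counts in tumour replicates 1 to 5, against 10, 16, 19, 7 and 35 counts in pancreas replicates 1 to 5. The groups overlapped widely. Ntrk3 did not pass (log2 fold change -0.94 ± 0.77, 95% interval -2.44 to 0.56, edgeR adjusted p = 0.295), and that interval covers changes in both directions. Thus no library had more than 35 counts for Ntrk2, Ntrk3 or Ngfr, while every library had at least 126 counts for Sort1 and 174 for Bdnf.

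**Figure D2:**
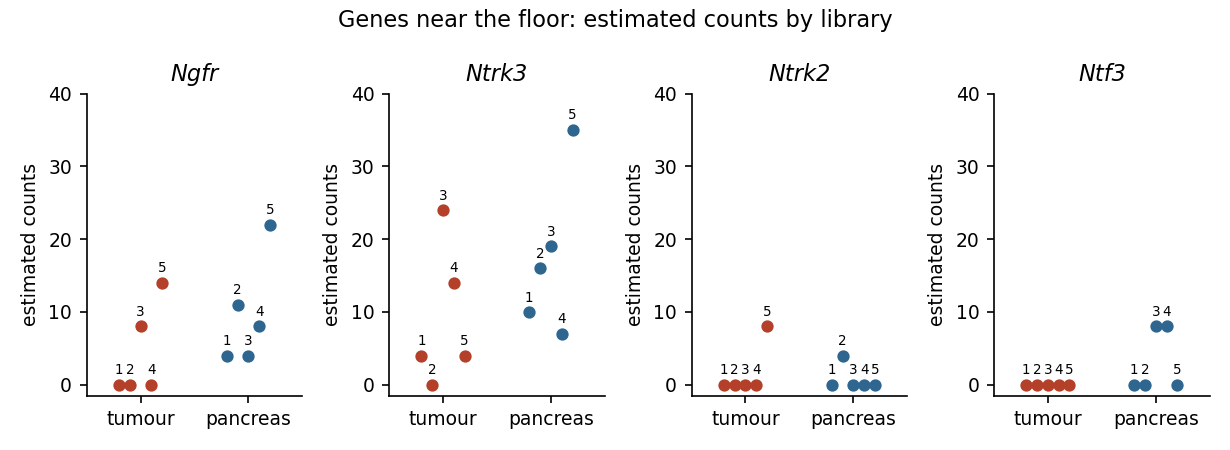
Estimated counts per library (vertical axes, 0 to 40) of Ngfr, Ntrk3, Ntrk2 and Ntf3 in tumour (red, left) and pancreas (blue, right), with replicate numbers above the points. No gene exceeds 35 counts in any library, and the groups overlap for all 4.

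Levels of different genes were compared per kb of merged exons. In tumour the order was Sort1 (4.99 ± 0.287 CPM per kb), Ntf5 (0.747 ± 0.0543) and Bdnf (0.450 ± 0.0821), with no overlap of libraries between these neighbours. In pancreas it was Bdnf (3.41 ± 1.15 CPM per kb), Ntf5 (0.974 ± 0.151) and Sort1 (0.635 ± 0.360), and there the libraries of Ntf5 and Sort1 overlapped. Bdnf and Sort1 thus traded places between the groups. Below them came Ngfr, at 0.0194 ± 0.0296 CPM per kb in tumour and 0.0387 ± 0.0270 in pancreas. It was followed by Ntrk3, Ntrk2 and Ntf3 in tumour, and by Ntf3, Ntrk3 and Ntrk2 in pancreas. In tumour no neighbours from Ngfr downward differed beyond the range of their libraries, and in pancreas only Ntrk3 and Ntrk2 did. Merged exons can be longer than any single transcript, and they ran to 30.17 kb for Ntrk3 and 19.292 kb for Ntrk2. The order of Ntf5 and Bdnf in tumour rests on them, since without the length Bdnf was at 2.80 CPM and Ntf5 at 1.98 CPM.

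**Figure D3:**
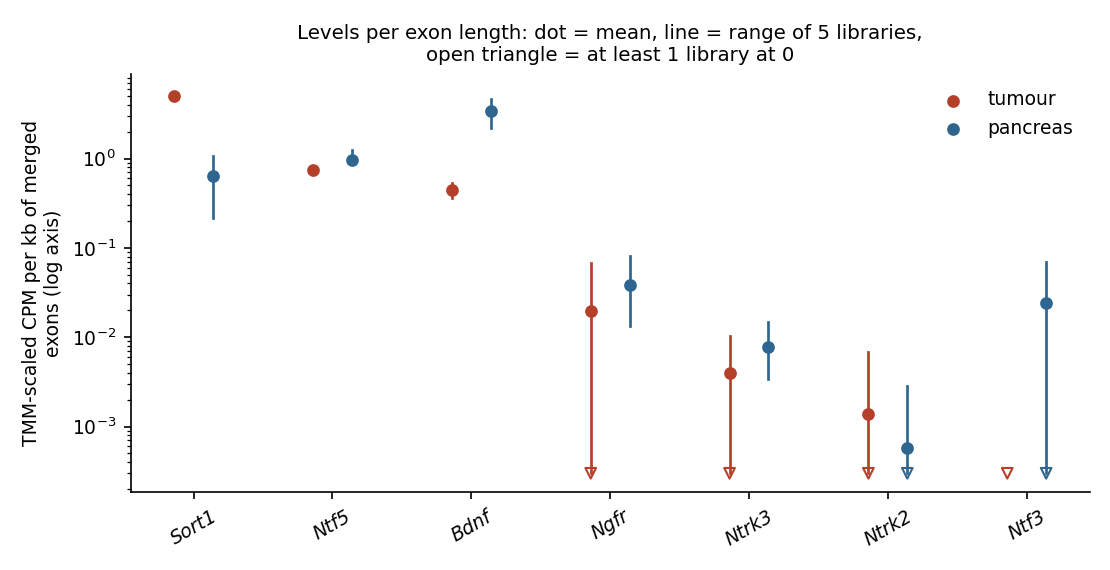
Level of each gene in TMM-scaled CPM per kb of merged exons (vertical log axis) in tumour (red, left of each pair) and pancreas (blue), with the mean as a dot, the range of 5 libraries as a line and an open triangle where at least 1 library was at 0. Sort1 lies highest in tumour and Bdnf in pancreas, and Ngfr, Ntrk3, Ntrk2 and Ntf3 lie at the bottom in both.

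Markers of other cell types also differed between the groups where Bdnf and Sort1 did, and their part in these results was not tested. Fibroblast markers summed to 117 to 145 CPM in tumour and 505 to 601 CPM in pancreas, with 6 of 8 tested members lower in tumour and 2 higher. Thy1 gave 3.15% of this list in tumour and 65.6% in pancreas, and without Thy1 the sums were 114 to 141 CPM in tumour and 150 to 229 CPM in pancreas. In this list Dcn, Lum and Dpt were at 0 in all tumour libraries. In pancreas Dcn had 20 to 87 counts per library, and Lum and Dpt at most 4 and 8. Pericyte, stellate and smooth muscle markers summed to 573 to 589 CPM in tumour and 726 to 861 CPM in pancreas. Of the 10 tested members of this list 5 were lower and 4 higher in tumour. Acta2 gave 32.4% of its counts in pancreas, at 266 ± 45.1 CPM, against 1.74 ± 0.153 CPM in tumour. Cspg4, among the 4 higher, was at 248 ± 4.58 CPM in tumour and 171 ± 19.8 CPM in pancreas. It gave 44.3% of the list's counts in tumour and 21.0% in pancreas, so the members of this list did not move together. Endothelial markers summed to 204 to 218 CPM in tumour and 327 to 375 CPM in pancreas, 91.8% of that from Cdh5. Of the 9 endothelial markers 6 averaged under 1 CPM in both groups. Ductal epithelial markers summed to 42.3 to 46.1 CPM in tumour and 88.5 to 116 CPM in pancreas (5 of 6 lower). Cftr gave 52.0% of this list's counts in pancreas, at 54.55 ± 9.80 CPM, against 1.51 ± 0.255 CPM in tumour. Of the 10 ductal markers 6 averaged under 1 CPM in both groups. Neuronal markers summed to 13.8 to 15.9 CPM in tumour and 47.0 to 52.6 CPM in pancreas. Tubb3 gave 33.5% of the neuronal list's counts in tumour and 82.4% in pancreas. Acinar (1.80 to 2.89 and 0.843 to 1.53 CPM) and endocrine markers (0.148 to 0.849 and 0.231 to 0.635 CPM) were near the floor. Of 10 macrophage and leukocyte markers 7 averaged under 1 CPM in both groups, and Adgre1 was at 0 in all 10 libraries. Cd14 gave 37.6% of this list's counts in tumour and 67.5% in pancreas. Of its 4 tested members Cd68 was higher and Cd14 lower in tumour. The list summed to 25.9 to 28.4 CPM in tumour and 28.9 to 41.0 CPM in pancreas replicates 1, 2 and 5. In pancreas replicates 3 and 4 it summed to 19.8 and 20.6 CPM. In the same pancreas replicates 3 and 4 the myelinating Schwann markers summed to 167 and 164 CPM, against 129 to 137 CPM in replicates 1, 2 and 5.

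Partners of p75 and relatives of sortilin were measured although Ngfr itself lay near the floor. Of 8 such genes 6 were tested, and 4 were higher and 2 lower (median log2 fold change 1.18, against 0.00 over all tested genes). All 6 were thus called, against 65.8% of all tested genes. Sorcs2, a sortilin relative that also binds p75, was at 6.74 ± 1.87 CPM in tumour and 1.43 ± 0.706 CPM in pancreas (log2 fold change 2.24 ± 0.30, edgeR adjusted p = 2.2e-05), so it was higher in tumour like Sort1. The other higher genes were Tnfrsf19 and Rtn4r, the gene of the Nogo receptor that signals with p75, and Sorl1, whose call was narrow (edgeR adjusted p = 0.0436). Nradd, a death domain relative of p75, was lower, at 32.0 ± 0.925 CPM in tumour and 48.0 ± 4.78 CPM in pancreas (edgeR adjusted p = 3.9e-06), and so was Lingo1, a partner of the Nogo receptor complex (edgeR adjusted p = 0.0286). Without pancreas replicates 3 and 4 the list had 3 higher and 1 lower. The Lingo1 call also ended without pancreas replicate 3 or 5 or tumour replicate 1, 2 or 4 alone (edgeR adjusted p = 0.0907, 0.0797, 0.066, 0.0577 and 0.0559), which leaves 1 lower. The Sorl1 call ended without pancreas replicate 2, 4 or 5 or tumour replicate 1, 4 or 5 alone (edgeR adjusted p = 0.0931, 0.0867, 0.0731, 0.0853, 0.104 and 0.08).

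Of 14 tested genes of proteins that act on the inner side of p75, 3 were higher and 5 lower (median log2 fold change -0.08). Their called share was 57.1%, against 65.8% of all tested genes. Bex3, a p75 partner in cell death signalling, was at 124 ± 3.26 CPM in tumour and 188 ± 17.8 CPM in pancreas (log2 fold change -0.61 ± 0.06, edgeR adjusted p = 8.3e-07). Arhgdia, an inhibitor of small GTPases that p75 acts on, was also lower (-0.56 ± 0.04, edgeR adjusted p = 1.1e-07), as were Ywhae, Maged1 and Zfp110. With library size alone the calls of Maged1 (edgeR adjusted p = 0.765) and Zfp110 (0.516) ended. Traf6 and Ripk2, adaptors of p75 signalling to NF-kappaB, were higher by 0.40 and 0.37 on the log2 scale, and the Rac exchange factor gene Prex1 was at 3.09 ± 0.259 CPM in tumour and 0.575 ± 0.431 CPM in pancreas (log2 fold change 2.41 ± 0.38, edgeR adjusted p = 7.3e-05). Without pancreas replicates 3 and 4 the Prex1 fold change was 3.28 ± 0.23 on the log2 scale. Scaled by library size alone, the list had 4 higher and 3 lower, and without pancreas replicates 3 and 4 it had 5 higher and 5 lower. Enzymes that cut p75 at the membrane were 4 higher and 2 lower of 8 (median 0.10). The sheddase gene Adam17 was at 126 ± 4.99 CPM in tumour and 84.3 ± 4.32 CPM in pancreas (0.58 ± 0.05, edgeR adjusted p = 1.2e-07), and Adam10 and the gamma-secretase subunit gene Aph1b (0.78 ± 0.08) were higher too. Psenen (-0.26 ± 0.08, edgeR adjusted p = 0.008) and Aph1a were lower, and with library size alone 5 were higher and 0 lower.

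Genes of Trk adaptors and signalling were 11 higher and 5 lower of 26 tested (median log2 fold change 0.20). Their called share was 61.5%, against 65.8% of all tested genes. With library size alone they were 17 higher and 3 lower, and without pancreas replicates 3 and 4 they were 15 higher and 3 lower. Pik3r1, a regulatory subunit of phosphoinositide 3-kinase, was at 131 ± 3.60 CPM in tumour and 31.9 ± 2.41 CPM in pancreas (2.04 ± 0.05, edgeR adjusted p = 1.7e-11). Kidins220, a scaffold that binds Trk receptors and p75, was at 461 ± 18.5 CPM in tumour and 206 ± 21.6 CPM in pancreas (1.16 ± 0.07, edgeR adjusted p = 5.6e-09), and the adaptor gene Gab2 was 2.49-fold higher. Sirpa was the lowest by fold, at 18.9 ± 0.777 CPM in tumour and 29.4 ± 2.53 CPM in pancreas (edgeR adjusted p = 2.5e-06). Crk, also among the 5 lower, passed narrowly (edgeR adjusted p = 0.0394). Its call ended with RLE scaling and with library size alone (edgeR adjusted p = 0.0515 and 0.903).

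Genes that process and sort neurotrophin precursors were 4 higher and 6 lower of 11 tested (median log2 fold change -0.28). Their called share was 90.9%, against 65.8% of all tested genes. The convertase gene Furin was at 95.7 ± 2.45 CPM in tumour and 185 ± 7.79 CPM in pancreas (-0.95 ± 0.04, edgeR adjusted p = 5.2e-10), and the convertase gene Pcsk7 (-0.96 ± 0.07) and the plasminogen activator gene Plat (-1.04 ± 0.08) were lower by a similar step. Cpe, which helps to sort Bdnf precursor, was at 1322 ± 83.9 CPM in tumour and 1957 ± 123 CPM in pancreas. Pcsk6, another convertase gene, was higher (3.47 ± 0.471 CPM in tumour and 1.77 ± 0.669 CPM in pancreas, edgeR adjusted p = 0.00666). So was Gga2, an adaptor that carries sortilin from the Golgi (0.77 ± 0.06, edgeR adjusted p = 5.8e-08). Mmp3, a metalloproteinase that can cut neurotrophin precursors, had 0 to 0.376 CPM in tumour, against 11.5, 10.8, 1.1, 0.943 and 15.9 CPM in pancreas replicates 1 to 5 (log2 fold change -5.22 ± 0.99, edgeR adjusted p = 0.00094, limma-voom adjusted p = 0.0811). Without pancreas replicates 3 and 4 the Mmp3 fold change was -5.88 ± 0.46 on the log2 scale (edgeR). Pancreas replicates 3 and 4, the highest for Bdnf and Sort1, were the lowest pancreas libraries for Mmp3.

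Regulators of Bdnf transcription were 7 higher and 2 lower of 13 tested (median log2 fold change 0.14), while Bdnf itself was lower. Of these regulators 69.2% were called, against 65.8% of all tested genes (32.4% higher, 33.4% lower). With library size alone 10 were higher and 2 lower, and without pancreas replicates 3 and 4 they were 7 and 3. The calls of Crtc3 (0.14) and Usf1 (0.15) ended without a low-count filter (edgeR adjusted p = 0.0774 and 0.06). Creb1, the gene of CREB, was at 79.2 ± 4.05 CPM in tumour and 56.1 ± 4.69 CPM in pancreas (0.50 ± 0.06, edgeR adjusted p = 7.7e-06). Rcor1, a corepressor of the neuronal gene silencer REST, was at 140 ± 4.65 CPM in tumour and 60.2 ± 6.51 CPM in pancreas (1.21 ± 0.07, edgeR adjusted p = 4.5e-09). Rest did not pass (0.08 ± 0.05, edgeR adjusted p = 0.157). The CREB coactivator gene Crtc2 (-0.34 ± 0.07) and Nfkb1 (-0.36 ± 0.05) were lower.

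Genes that neurotrophins are known to induce, which many other signals induce too, were 2 higher and 11 lower of 16 tested (median log2 fold change -1.37, against 0.00 over all tested genes). These counts were the same under library size scaling and without pancreas replicates 3 and 4. The called share was 81.2%, against 65.8% of all tested genes. Arc, a synaptic immediate early gene, was at 1.44, 1.66, 0.844, 2.09 and 0.940 CPM in tumour replicates 1 to 5, against 34.7, 42.9, 18.5, 18.5 and 52.0 CPM in pancreas replicates 1 to 5 (-4.57 ± 0.39, edgeR adjusted p = 1.6e-06). Egr3, a transcription factor gene, was at 4.34 to 5.91 CPM in tumour, against 47.8, 59.1, 23.1, 23.3 and 64.6 CPM in pancreas replicates 1 to 5 (-3.13 ± 0.32, edgeR adjusted p = 6.4e-06). In both genes pancreas replicates 3 and 4 were the lowest of the pancreas libraries and still above all tumour libraries. Fos, another immediate early gene, was at 14.4 to 25.6 CPM in tumour, against 107, 103, 152, 153 and 64.7 CPM in pancreas replicates 1 to 5 (-2.61 ± 0.25, edgeR adjusted p = 4.1e-06), so here replicates 3 and 4 were the highest. Dusp6, a feedback inhibitor of ERK, was at 17.7 ± 1.07 CPM in tumour and 59.8 ± 6.46 CPM in pancreas (-1.76 ± 0.08, edgeR adjusted p = 5.9e-10). The 2 higher genes were Dusp4 (132 ± 13.1 CPM in tumour and 76.2 ± 7.54 CPM in pancreas) and Homer1. Tissue and digestion enzyme cannot be told apart for these genes either.

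**Figure D4:**
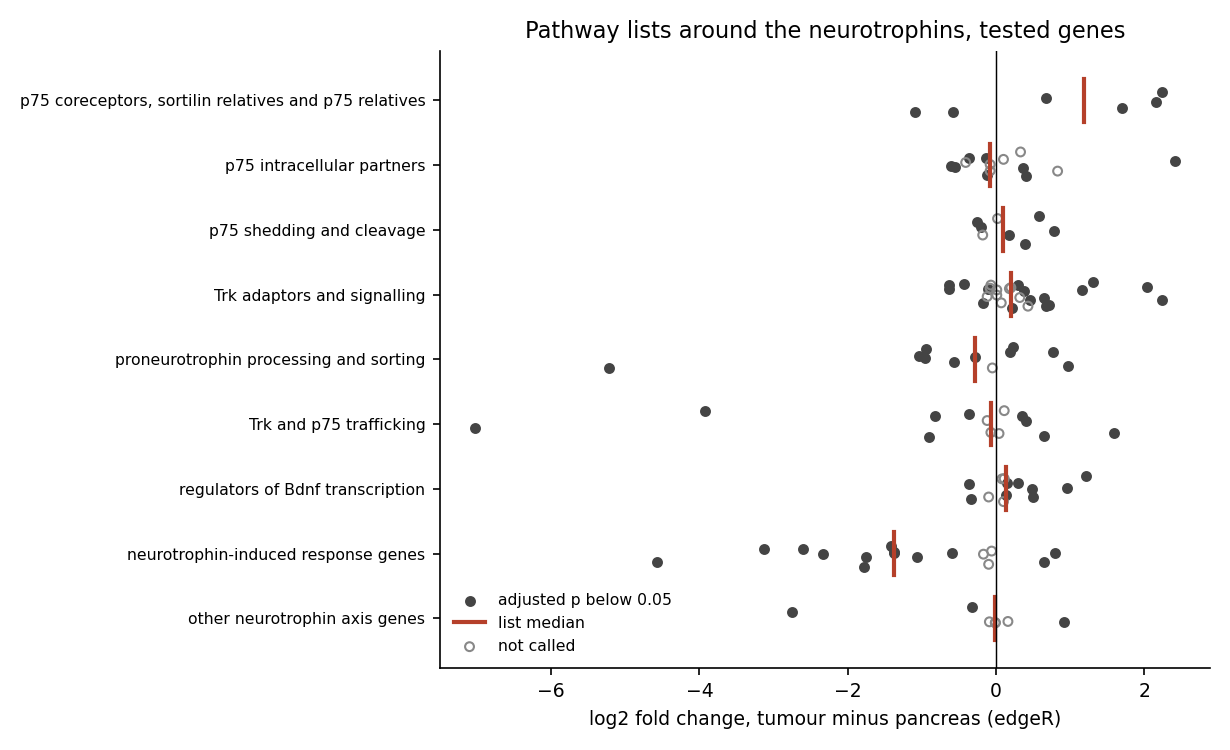
Log2 fold change, tumour minus pancreas (horizontal axis), of each tested gene in the lists around the neurotrophins (rows), with filled points for an adjusted p below 0.05, open points for genes not called and red bars for list medians. The median of the response genes is -1.37 and that of the p75 coreceptors and sortilin relatives 1.18, while the other lists have medians between -0.28 and 0.20. Slitrk5, at 0 in 4 of 5 tumour libraries, lies farthest left, and its fitted fold depends on the prior count.

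Over all 130 genes of these lists, 114 were tested and 70.2% of those were called (40 higher, 40 lower), near the 65.8% of all genes. Likeness of pattern was measured as the root mean square difference of log2 CPM over the 10 libraries, each gene centred on its own mean, among 10404 genes. Closest to Bdnf were Mab21l1 and the elastic fibre gene Fbln5, each at 0.253, with 2.28 ± 0.393 and 1.87 ± 0.585 CPM in tumour, against 15 ± 2.37 and 13.1 ± 2.56 CPM in pancreas. Closest to Sort1 was Sh3tc2, a gene of an endosomal protein of Schwann cells (0.2, 25.6 ± 1.14 CPM in tumour and 3.08 ± 1.26 CPM in pancreas). Next came the retinaldehyde dehydrogenase gene Aldh1a1 (0.273, 110 ± 14.3 CPM in tumour and 16.8 ± 12.2 CPM in pancreas). Closest to Ntf5 were Acox3 and Upf3b, each at 0.081. For Ntrk3, whose low counts spread widely, the closest genes, Slc25a10 and Nckipsd, were no nearer than 0.487 and 0.489.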

How the data were processed

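The deposited values are estimated counts per gene in 10 libraries. HISAT, HISAT2, HTSeq and build mm10 are named, per the submitters' processing notes. Tool versions, counting settings, annotation and filters were not given in the sources. Values were whole numbers, and 0 columns belonged to no sample. For each library the number of genes with 4 counts was 1.69 to 2.07 times the mean of those with 3 and with 5, so 1 fragment appears to count more than once. Per the labels' protocols, 2 µg of RNA entered a NEBNext Ultra library, a kit that does not mark strand.

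Genes were filtered with filterByExpr (minimum count 10, minimum total 15), scaled by TMM (factors 1.03 to 1.04 in tumour, 0.960 to 0.972 in pancreas) and tested with the edgeR 4.0.16 quasi-likelihood F test in R 4.3.3. The SE is the log2 fold change divided by the square root of F. Alternatives were DESeq2 1.42.0, limma-voom (limma 3.58.1), other scalings and filters, counts divided by 4, a replicate block and left-out libraries. To look for libraries deposited more than once, counts divided by 4 were compared between the libraries of a group among genes with a mean count of 100 or more. The chi-square statistic over its degrees of freedom ran from 3.01 to 6.17 in tumour and from 3.60 to 44.0 in pancreas, so all 10 were kept as separate samples. Of 55401 identifiers 55141 were found in GENCODE M21, which gave mm10 coordinates and exon lengths.

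The genes, the 9 pathway lists and the 10 marker lists were chosen with earlier results of these data known. Each pathway list names its highest and lowest called gene averaging 1 CPM or more, and further list genes were named after their values were seen. Similar patterns used log2(CPM + 0.1) and genes averaging 5 CPM or more. Some genes of the family and of these lists are not reported here. Sums of markers are CPM relative to total counts.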

Additional observations from a re-analysis of the deposited data

Results flagged for a closer look

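Some libraries lay far from the other 4 of their group, judged by the gap to the nearest library over the group's whole range. Of 70 groups of 5 libraries looked at, 6 had such a library. Chance gives about 1 in 20 only for normally distributed values, and a group with a single library above 0 always passes. The 6 are therefore not set against chance. The rule looks for single libraries, so it could not flag pancreas replicates 3 and 4 as a pair. Ntf5 was at 3.29 CPM in pancreas replicate 5, against 2.29 to 2.48 CPM in the other pancreas libraries. Without that library its call ended. Summed fibroblast markers were at 505 CPM in pancreas replicate 5, against 583 to 601 CPM in the others. Nfkb1 was at 106 CPM in tumour replicate 3, against 92.0 to 96.2 CPM in the others. The remaining 3 were genes near the floor with a single library above 0 in the group: Ntrk2 at 0.132 CPM in tumour replicate 5, Ntrk2 at 0.0551 CPM in pancreas replicate 2, and Slitrk5 at 0.156 CPM in tumour replicate 3.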

How the results depend on the processing

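Bdnf and Sort1 kept direction and call under all 19 alternatives, with log2 fold changes of -3.05 to -2.54 and 2.75 to 3.65. Leaving out 1 library gave -3.05 to -2.79 for Bdnf and 2.75 to 3.26 for Sort1. Ntf5 kept its direction and lost its call with library size only (log2 fold change -0.28), without a low-count filter (-0.39), with the replicate block (-0.37) and without pancreas replicates 3 and 4 (-0.45). It also lost it without pancreas replicate 2, 3 or 5 or any 1 tumour replicate, and the values with 1 library left out ran from -0.43 to -0.28. The cause was not tested. Ntrk3 was not called in any of the 17 alternatives that tested it (-1.70 to -0.56). Over all genes, 11542 were called, 11107 to 11575 with 1 library left out and 11185 with the replicate block. Deviations of libraries with the same replicate number were little correlated (-0.0328 to 0.0536). For replicate 2 alone each library correlated best with the other of its number. A pairing by number was thus not clear, but 5 libraries per group cannot exclude one. The block changed no other call among the neurotrophin genes. Mmp3 did not pass with limma-voom, nor Psenen with library size only. Scaling by library size moved the median of all genes by 0.10 on the log2 scale. Because 1 fragment appears to count more than once, depth for genes near the floor is lower than the counts show.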

Other observations

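Genes of Trk and p75 trafficking were 4 higher and 5 lower of 13 tested, and 6 higher and 4 lower with library size alone. Their called share was 69.2%, against 65.8% of all tested genes. Coro1a, among the 5 lower, passed narrowly (edgeR adjusted p = 0.0448). Its call ended with the replicate block and without pancreas replicates 3 and 4 (edgeR adjusted p = 0.0717 and 0.0928). The call of Snapin, among the 4 higher, ended without a low-count filter (edgeR adjusted p = 0.0584). Ptprf, a receptor phosphatase known to associate with TrkB, was at 127 ± 5.88 CPM in tumour and 42.2 ± 12.7 CPM in pancreas (log2 fold change 1.59 ± 0.18, edgeR adjusted p = 1.2e-05). Slitrk5, a TrkB coreceptor gene, was at 0 CPM in 4 tumour libraries and 0.156 CPM in tumour replicate 3, against 3.61 to 5.23 CPM in pancreas (edgeR adjusted p = 1.9e-06). The endosome gene Ehd4 was lower as well (60.9 ± 2.56 CPM in tumour and 113 ± 19.9 CPM in pancreas). Among 7 other tested genes of the neurotrophin axis (42.9% called), Nfat5 was higher (0.91 ± 0.10) and Rit1 (-0.32 ± 0.08) and Adora2a (-2.75 ± 0.87) were lower. Without tumour replicate 5 the Adora2a value was -4.60 ± 0.77. With library size alone, RLE scaling or DESeq2, 2 of these genes were higher. The same held without pancreas replicate 3 or 4, and without both.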
